A study of Talpa occidentalis with 24 samples.

Results

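The cytochrome P450 gene models of the Iberian mole, Talpa occidentalis, were taken from the gene annotation deposited with a chromatin study of mole gonads. A model was counted when its name, without the suffix that numbers further copies, was CYP followed by a number, a letter and a number. CYP17A1 was left out. This rule found 60 of the 23336 gene models of the talOcc3 assembly, under 39 names. In the study, 4 histone marks (H3K4me3, H3K4me1, H3K27ac and H3K27me3) were profiled by ChIP-seq in wild-type moles at postnatal day 7. Its 3 tissues were the testis of males and the ovarian and testicular parts of the ovotestis, the mixed gonad of female moles, with 2 replicates for each mark and tissue. The labels give the wild-type genotype for all animals and name no treatment. Their chromatin maps lie on another assembly, talOcc4, and positions were not carried over, so the gene models have no tissue values here and no comparison between tissues was made.

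Cytochrome P450 enzymes are haem proteins that add oxygen to small lipid-like molecules. They are named by family (a number), subfamily (a letter) and gene. Those of the mitochondria receive electrons through ferredoxin, and those of the endoplasmic reticulum through P450 oxidoreductase. In gonads they make the sex steroids and break down retinoic acid, a signal tied to the start of meiosis in germ cells. In the liver, the kidney and the gut, P450 enzymes process bile acids, fatty acids and foreign compounds. Those that act on fatty acids and foreign compounds include members of large families that often lie in gene clusters.

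The 60 models covered 34 subfamilies in 14 families. CYP2 was the largest family, with 26 models under 14 names, and CYP4 followed with 15 models under 7 names. CYP1 and CYP26 had 3 models each, and 7 families had 1 model: CYP11, CYP19, CYP21, CYP24, CYP39, CYP51 and CYP8. The subfamily with most models was CYP2C, with 12, followed by CYP4A with 5, and 23 subfamilies had a single model. Of the 39 names, 28 had 1 model and 11 had more, 28.2% of the names. Over all names of the annotation that rest on a match to a target sequence, 14.6% had more than 1 model. Short models count in these shares, such as CYP46A1 copy 2 with 2 exons. So do models that matched separate ranges of a target, such as those of CYP4Z1. CYP2C18 had 6 models, CYP4A11 had 5 and CYP4V2 had 3. The names CYP2A13, CYP2B6, CYP2F1, CYP2R1, CYP4F3, CYP4Z1 and CYP46A1 had 2 models each. A name records the target sequence that a model matched, so a model called CYP4A11 is a relative of that gene and need not be its only mole counterpart.

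The models held between 1 and 14 exons, with a median of 7.5, against a median of 5 over all 23336 models. Among models from EVM, the source of most models, the median was 8 in both sets, and among models with more than 1 exon it was 8 against 7. Exons are coding exons here, since every exon interval in the annotation was also a coding interval. CYP4F3 copy 2 had the most, 14, and 5 models had a single exon. These made up 8.33% of the models, beside 24.7% over the annotation, and among them were CYP8B1, CYP2C8, and CYP2C18 copies 5 and 6. At least 8 exons were present in 30 of the 60 models, which follows from the median of 7.5. The annotation names the source of each model. Of the 60 models, 50 (83.3%) came from EVM, 7 (11.7%) from exonerate and 3 (5%) from ALN. Over all models the shares were 64.2%, 25.5% and 10.3%. The 3 ALN models were CYP27B1 and both models of CYP2R1. All 39 names lay in the role lists described next. These lists were chosen with earlier results of these data known, so that count does not measure how complete the models are. Of the 54 listed names, 15 had no model in the table used here.

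**Figure D1:**
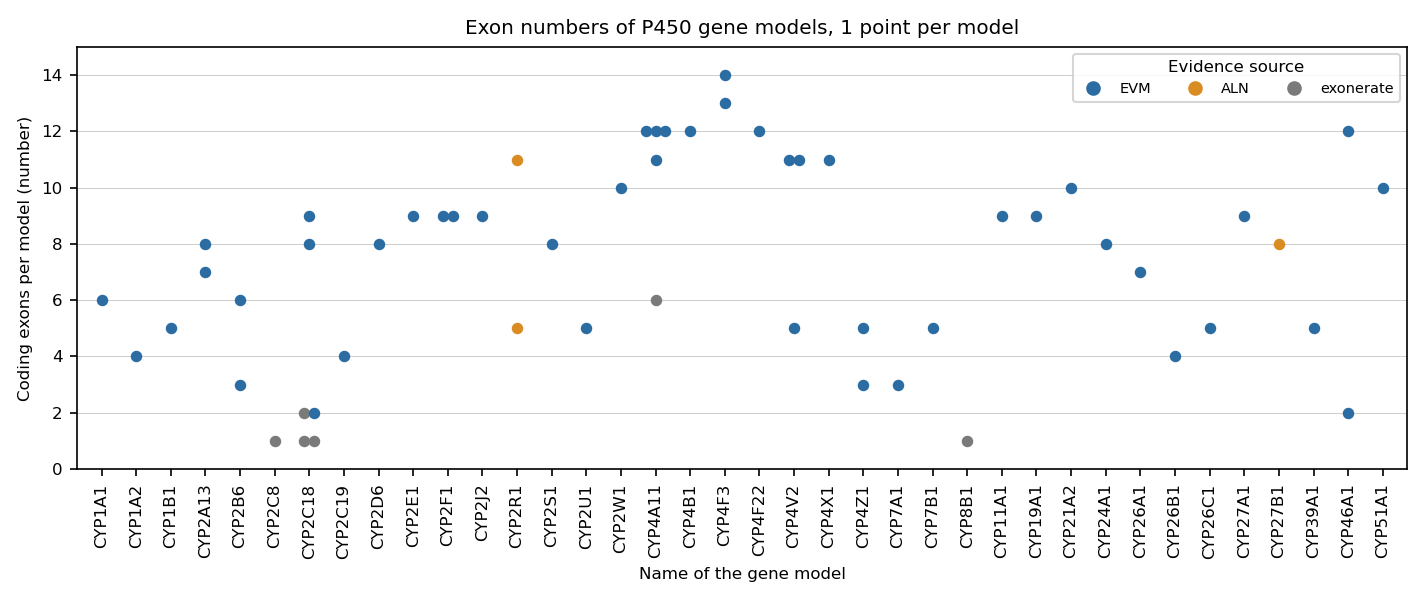
Number of coding exons (vertical axis) of the P450 gene models described here, grouped by name along the horizontal axis, with 1 point per model and its evidence source in colour. The 2 CYP4F3 models stand highest with 13 and 14 exons, and the single-exon models are from exonerate.

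For steroid synthesis, 3 of 5 listed names had a model: CYP11A1, CYP19A1 and CYP21A2, each present once and from EVM. CYP11B1 and CYP11B2, which finish cortisol and aldosterone in the adrenal gland, were not among the models. CYP11A1, the mitochondrial side-chain cleavage enzyme that turns cholesterol into pregnenolone, lay on the minus strand of scaffold 16 at 34653023 to 34664340, between CCDC33 and SEMA7A. It had 9 exons and a coding length of 1566 bp, which matched target positions 156 to 1694. CYP19A1, the aromatase that converts androgens into oestrogens, lay on the plus strand of the same scaffold at 19063846 to 19094591, between GLDN and TNFAIP8L3. Its 9 exons added up to 1485 bp of coding sequence and matched positions 135 to 1616. CYP21A2, the steroid 21-hydroxylase of the adrenal cortex, was found on the minus strand of scaffold 59 at 197656 to 200062, between TNXB and C4B. It packed 10 exons into 2407 bp, whereas the 9 exons of CYP19A1 extended over 30746 bp. The coding length of all 3 was a multiple of 3.

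Other genes of the same pathway were looked up from a list. Of 9 steroid synthesis partners, 8 had a model. STAR, which carries cholesterol into the mitochondrion, and NR5A1, the transcription factor that switches on steroid synthesis genes, had 7 exons each. HSD17B3, which makes testosterone from androstenedione, had 11 exons. HSD3B1, which converts pregnenolone into progesterone, had 3 exons, and HSD3B2 had no model. HSD17B12 had 2 models, with 11 exons and 1 exon, while each of the other listed partners with a model had 1. All 5 redox partners had a model: POR, the electron donor of the microsomal enzymes, had 15 exons, FDXR had 13 and FDX1 had 3. CYB5A had models of 1 and 2 exons and CYB5R3 a model of 1 exon, all from exonerate.

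The 3 CYP26 enzymes, which break down retinoic acid, each had 1 model from EVM. CYP26B1 is known from the mouse fetal testis, where it keeps germ cells from entering meiosis. CYP26C1 and CYP26A1 were neighbours on the plus strand of scaffold 11, at 38341991 to 38347405 and 38354278 to 38357640, with a gap of 6872 bp and no other model between them. EXOC6 lay before the pair and MYOF after it. CYP26B1 lay on the plus strand of scaffold 9 at 54400751 to 54403802, with EXOC6B as the second model before it. A member of the exocyst family thus lay near both CYP26 loci. CYP26A1 had 7 exons and matched positions 46 to 1539, CYP26C1 had 5 and matched 1 to 1192, and CYP26B1 had 4 and matched 227 to 1342. Their exon lengths had a property in common. CYP26A1 exons measured 189, 225, 291, 159, 135, 153 and 342 bp, those of CYP26C1 204, 225, 276, 156 and 429 bp, and those of CYP26B1 339, 156, 285 and 393 bp. Each of these 16 lengths is a multiple of 3, so the introns within a model all fall at the same place in the codon. Of the 51 P450 models with at least 3 exons, these were the 3 with this property (5.88%), and over all models of at least 3 exons it held for 3.13%. Among 7 retinoid partners, 6 had a model, with ALDH1A1, ALDH1A2 and ALDH1A3, which make retinoic acid, at 13, 15 and 14 exons. STRA8, a retinoic acid target in germ cells, had 7 exons. CRABP1 had no model.

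All 3 listed enzymes of vitamin D metabolism had a model. CYP2R1, which adds the hydroxyl group at carbon 25 in the liver, had a model of 5 exons on scaffold 18 at 36543555 to 36556899 (coding exons from 36547415), between PDE3B and CALCA, with a match score of 2279. A second CYP2R1 model lay on scaffold 10 at 46079361 to 46092270 between ARAP2 and PCDH7. It covered positions 84 to 1503 of the same target, where the first covered 36 to 1503. Its coding sequence was split into 11 exons and its score was 719, 31.5% of the first. CYP27B1, which makes the active hormone, had 8 exons on scaffold 34 at 15935056 to 15938329. CYP24A1, which inactivates it, had 8 exons on scaffold 2 at 4466181 to 4475171 and matched its target from position 1039 to 1942.

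Every one of the 7 listed enzymes of cholesterol and bile acid metabolism had a model, and these differed widely in coding length. CYP51A1, the lanosterol demethylase of cholesterol synthesis, had 10 exons and 1482 bp of coding sequence on scaffold 16 at 47142767 to 47171969. CYP27A1, the mitochondrial sterol 27-hydroxylase, had 9 exons and 1551 bp on scaffold 23 at 24912407 to 24942536. CYP8B1, the sterol 12-hydroxylase that sets the share of cholic acid, was a single exon of 1491 bp on scaffold 12 at 30265491 to 30266981, and that exon matched positions 326 to 1817. Human CYP8B1 also has a single coding exon. CYP7A1, the rate-limiting enzyme of bile acid synthesis, had 3 exons and 471 bp on scaffold 20 at 10765150 to 10772786. Its match covered 245 positions of the model and positions 853 to 1097 of the target. CYP39A1 had 5 exons and 492 bp, matched at 689 to 1155, and CYP7B1 had 5 exons and 1142 bp, matched at 327 to 1468. The CYP7A1 and CYP39A1 models thus had the shortest coding lengths of these 8 models. CYP46A1, the cholesterol 24-hydroxylase of neurons, had 12 exons on the minus strand of scaffold 29 at 17661947 to 17684736, and a second CYP46A1 model of 2 exons ended 130 bp away at 17661004 to 17661816. The large model matched positions 200 to 1266 of its target. The small one lay downstream on the same strand and matched positions 1544 to 1833 of another CYP46A1 target. Positions on different targets share no origin, so whether the matched pieces overlap was not tested.

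For the oxidation of fatty acids and eicosanoids, 9 of 14 listed names had a model, with 17 models among them. CYP4A22, CYP4F2, CYP4F8, CYP4F11 and CYP4F12 had none. CYP2J2, an arachidonic acid epoxygenase, had 9 exons on scaffold 2 at 42064093 to 42092086, and CYP2U1 had 5 exons on scaffold 3 at 84184909 to 84195568. The other 15 models belonged to CYP4 and 14 of them lay in clusters, defined as runs of at least 2 P450 models with gaps of at most 100 kb.

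The largest cluster of the annotation's P450 models held 9 models of CYP4 in 175.8 kb of scaffold 2, from 73890573 to 74066342, with no model of another kind between them. TAL1 and PDZK1IP1 lay before it, and NACA copy 6 and EFCAB14 after it. In order along the scaffold it held CYP4Z1, CYP4Z1 copy 2, CYP4X1, then 5 models named CYP4A11, then CYP4B1. All 5 CYP4A11 models were on the plus strand, and the other 4 models were on the minus strand. CYP4A11 encodes a hydroxylase that acts on the omega end of fatty acids. Gaps between neighbours ranged from 4585 to 14481 bp. CYP4A11 (73963854 to 73972197), copy 3 (73984286 to 73993704) and copy 2 (74007612 to 74019961) had 12 exons each and matched positions 52 to 1577 of the same target. Their scores were 1546, 1493 and 1543. Copy 4 (74031396 to 74041028), with 11 exons, and copy 5 (73946119 to 73954601), with 6 exons, matched another CYP4A11 target from position 44, up to 1365 and 826. Scores on different targets were not compared. CYP4X1, an enzyme of the brain and other tissues, had 11 exons at 73922172 to 73938011. CYP4B1, an enzyme of the lung, had 12 exons at 74049249 to 74066342. The CYP4Z1 models, at 73890573 to 73895895 and 73900481 to 73907690, had 3 and 5 exons.

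The exon lengths of the 3 long CYP4A11 models were almost the same. In CYP4A11 and copy 3 all 12 lengths were equal, at 195, 139, 45, 128, 122, 155, 107, 191, 134, 65, 77 and 169 bp. Copy 2 differed at the fifth exon, which measured 125 bp in place of 122 bp, a difference of 1 codon. Copy 4 had 125 bp there too, 142 bp in place of 139 bp at the second exon, and no exons of 155, 107 and 191 bp. In their place it held exons of 166 and 53 bp, and its last 4 exons again had the lengths 134, 65, 77 and 169 bp. Its exons 2 to 5, at 142, 45, 128 and 125 bp, had the lengths of those of CYP4B1. Copy 5 ended after its sixth exon.

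CYP4F and CYP4V2 formed the other CYP4 clusters. On scaffold 5, CYP4F22, which makes an omega-hydroxylated fatty acid of the skin barrier, and 2 CYP4F3 models followed each other on the plus strand within 101.5 kb, from 3601808 to 3703257. CYP4F3, an omega-hydroxylase of leukotriene B4, had 13 exons and its copy 2 had 14. CYP4F22 lay at 3601808 to 3621879, CYP4F3 copy 2 at 3630561 to 3656651 and CYP4F3 at 3691570 to 3703257. The additional exon of copy 2 was the second, at 13 bp. The olfactory receptor genes OR10H1 and OR10H5 lay beyond the cluster. On scaffold 13, CYP4V2, a fatty acid hydroxylase of the eye, had 11 exons at 44533068 to 44550601, and copy 3, with 5 exons, lay 12.1 kb further on the same strand. Copy 2 of CYP4V2 was the only model of scaffold 447, at 4126 to 22978. It had 11 exons, of which 10 in a row had the lengths of CYP4V2 and only the first differed, at 229 bp against 211 bp.

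**Figure D2:**
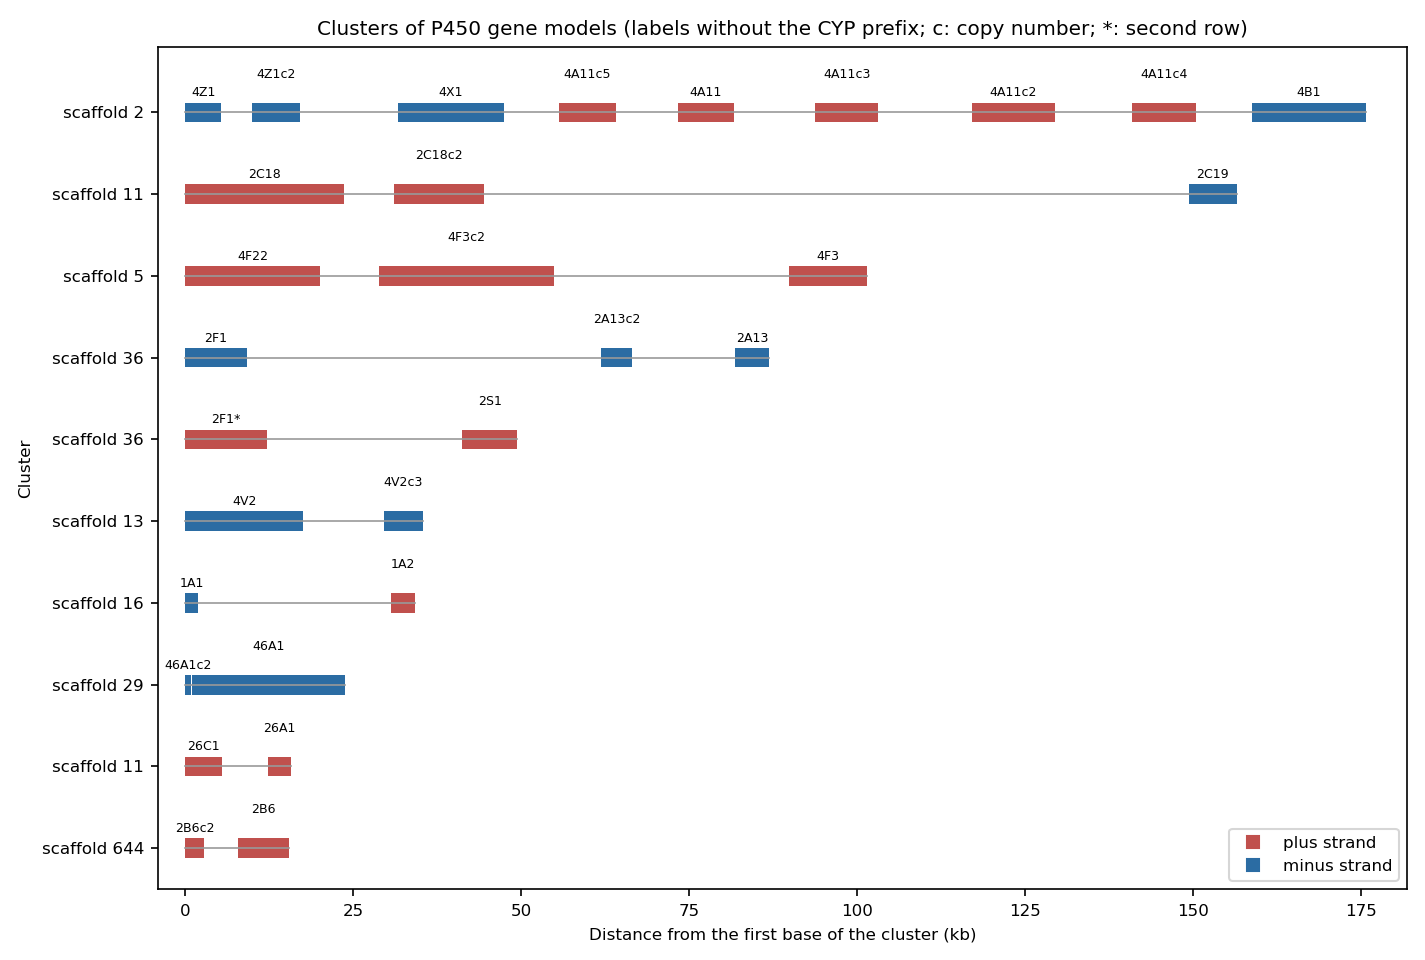
Positions of the P450 models described here in the 10 clusters, in kb from the first base of each cluster, with models of the plus strand in red and those of the minus strand in blue. The cluster of 9 CYP4 models on scaffold 2 is the longest, at 175.8 kb, and its 5 CYP4A11 models lie side by side on the plus strand.

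For foreign compounds, 13 of 19 listed names had a model, with 24 models. The 4 listed CYP3A names (CYP3A4, CYP3A5, CYP3A7 and CYP3A43) had none, and neither had CYP2A6 or CYP2A7. CYP1A1 and CYP1A2, the classical targets of the aryl hydrocarbon receptor, lay 28.8 kb apart on opposite strands of scaffold 16, at 34979431 to 34981246 and 35010042 to 35013633, between EDC3 and CSK. CYP1A1 matched positions 879 to 1738 of its target and CYP1A2 positions 1014 to 1611. CYP1B1, which oxidises oestrogens and polycyclic hydrocarbons, had 5 exons on scaffold 9 at 21056628 to 21062154. CYP2D6, which acts on many drugs, had 8 exons on scaffold 19 at 43003775 to 43006448. CYP2E1, which oxidises ethanol, had 9 exons on scaffold 11 at 63634229 to 63641462, next to SYCE1. Its first exon was 951 bp long and its coding length of 2307 bp was the second highest of the 60 models. The match of CYP2E1 covered 2189 positions of the model but 1304 of the target. CYP2W1, listed among the little-known enzymes, had 10 exons on scaffold 5 at 30889763 to 30896169, while CYP20A1 and CYP27C1 had no model.

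The CYP2C models divided into 4 that lay together and 8 that lay alone on small scaffolds. CYP2C enzymes act on drugs and on arachidonic acid. On scaffold 11, CYP2C18 (9 exons), CYP2C18 copy 2 (8 exons) and CYP2C19 (4 exons) belonged to a cluster of 156.5 kb, from 39389538 to 39546002, with CYCS copy 2 and HELLS before it and PDLIM1 after it. CYP2C18 lay at 39389538 to 39413171, its copy 2 at 39420661 to 39433999 and CYP2C19 at 39538841 to 39546002. Both CYP2C18 models were on the plus strand and CYP2C19 was on the minus strand. The CYP2C19 match covered 259 positions of a coding length of 780 bp, and that of CYP2C18 1482 positions of 1482 bp. CYP2C8 and CYP2C18 copies 3, 4, 5 and 6 were each the only model of their scaffold and had 1 or 2 exons. CYP2C8 lay on scaffold 2898 at 441 to 635. CYP2C18 copy 3 lay on scaffold 6352 at 1124 to 2472 and copy 4 on scaffold 2249 at 168 to 3278. These scaffolds carry no other model, so the place of these models relative to the scaffold 11 cluster cannot be read from the annotation. CYP2C18 copies 5 and 6, on scaffold 5175 at 596 to 760 and scaffold 1714 at 707 to 871, were single exons of 165 bp that both matched positions 807 to 970.

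A second group of CYP2 models lay on scaffold 36. On the minus strand were CYP2F1 at 11788628 to 11797750, CYP2A13 copy 2 at 11850552 to 11855076 and CYP2A13 at 11870406 to 11875479. On the plus strand were another model with the identifier CYP2F1 at 12047408 to 12059504 and CYP2S1 at 12088645 to 12096738. CYP2A13 and CYP2F1 are enzymes of the airways that activate inhaled compounds. The distance limit of 100 kb made this 2 clusters, of 3 and 2 models. Between them lay 3 P450 models with human pseudogene names that the naming rule passes over, CYP2G1P, CYP2G1P copy 4 and CYP2B7P. With those included the stretch was 1 cluster of 8 models in 308.1 kb. CYP2G1P and CYP2B7P had 9 exons each here, and coding lengths of 1485 and 1512 bp. CYP2B6, a drug-oxidising enzyme, and its copy 2 lay apart from them as the only 2 models of scaffold 644, at 8766 to 16426 and 935 to 3720. They had 6 and 3 exons and a gap of 5045 bp.

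The identifier CYP2F1 stood on 2 gene rows of scaffold 36, without a copy suffix. In the whole annotation 70 identifiers stood on more than 1 gene row. The CYP2F1 rows lay 249657 bp apart on opposite strands. Both models had 9 exons, and exons 2 to 8 had the same lengths in both. They matched different CYP2F1 targets. On the plus-strand model the match covered 1320 positions of the model and 440 of the target, a ratio of 3, so the numbering of this target may be in another unit. The scores and target ranges of the pair were therefore not compared.

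Exon lengths were shared in runs within families and hardly at all between them. A run is a series of consecutive exons whose lengths in bp are equal in a pair of models. Of 1331 pairs from different families, 0 had a run of at least 4 exons and 4 pairs had a run of at least 2. Of 350 pairs of different subfamilies in the same family, 38 (10.9%) had a run of at least 4, of 48 pairs of different names in the same subfamily 4 (8.33%), and of 41 pairs of the same name 12 (29.3%). Pairs share models and many hold short fragments, so these shares describe the set and are not independent observations. The longest run was that of 12 exons in CYP4A11 and its copy 3.

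The CYP2 run 161, 177, 142 and 188 bp was found in 8 models, among them CYP2A13, CYP2C18, CYP2C18 copy 2, CYP2D6, CYP2E1 and both CYP2F1 models. In these 7 the next exon measured 142 bp. Over the annotation, 10 of the 13919 models with at least 4 exons held the 4 lengths (0.0718%), and the other 2 were CYP2G1P and CYP2B7P. The order was most complete in CYP2F1 of the minus strand, whose exons after the first measured 163, 150, 161, 177, 142, 188, 142 and 182 bp. All 8 recurred in CYP2A13, and also in CYP2G1P. Some shorter models held a piece of the same order. CYP2B6 had 163, 150, 161 and 177 bp, and its copy 2, which lay before it on the same strand, had 188, 142 and 182 bp, the lengths that close the order in CYP2F1. CYP2R1, CYP2U1, CYP2J2 and CYP2W1 held no run of 4 in common with another model. In all, 10 of the 26 CYP2 models and 12 of the 15 CYP4 models shared a run of at least 4 with another P450 model. The matching share was not computed over all models or for other gene families, so these counts only describe the set.

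In CYP4 the lengths 134 and 65 bp stood next to each other in 9 models, of the CYP4A, CYP4B, CYP4F and CYP4X subfamilies, and in 0 other models of the annotation. The run 107, 191, 134 and 65 bp occurred in CYP4A11, its copies 2 and 3, CYP4B1 and CYP4X1, and likewise in no other model. CYP4V2 did not share these. All 3 CYP4V2 models held the run 186, 103, 135 and 180 bp. Between families, the mitochondrial enzymes CYP11A1 and CYP24A1 shared 167, 79 and 198 bp. CYP24A1 and CYP27B1 shared 79, 198 and 111 bp as their last 3 exons. CYP27A1, also mitochondrial, had 167, 82 and 213 bp before its last exon. The other pairs of different families with a run of at least 2 were CYP11A1 and CYP27B1, with 79 and 198 bp, and CYP2S1 and CYP4B1, with 180 and 142 bp.

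**Figure D3:**
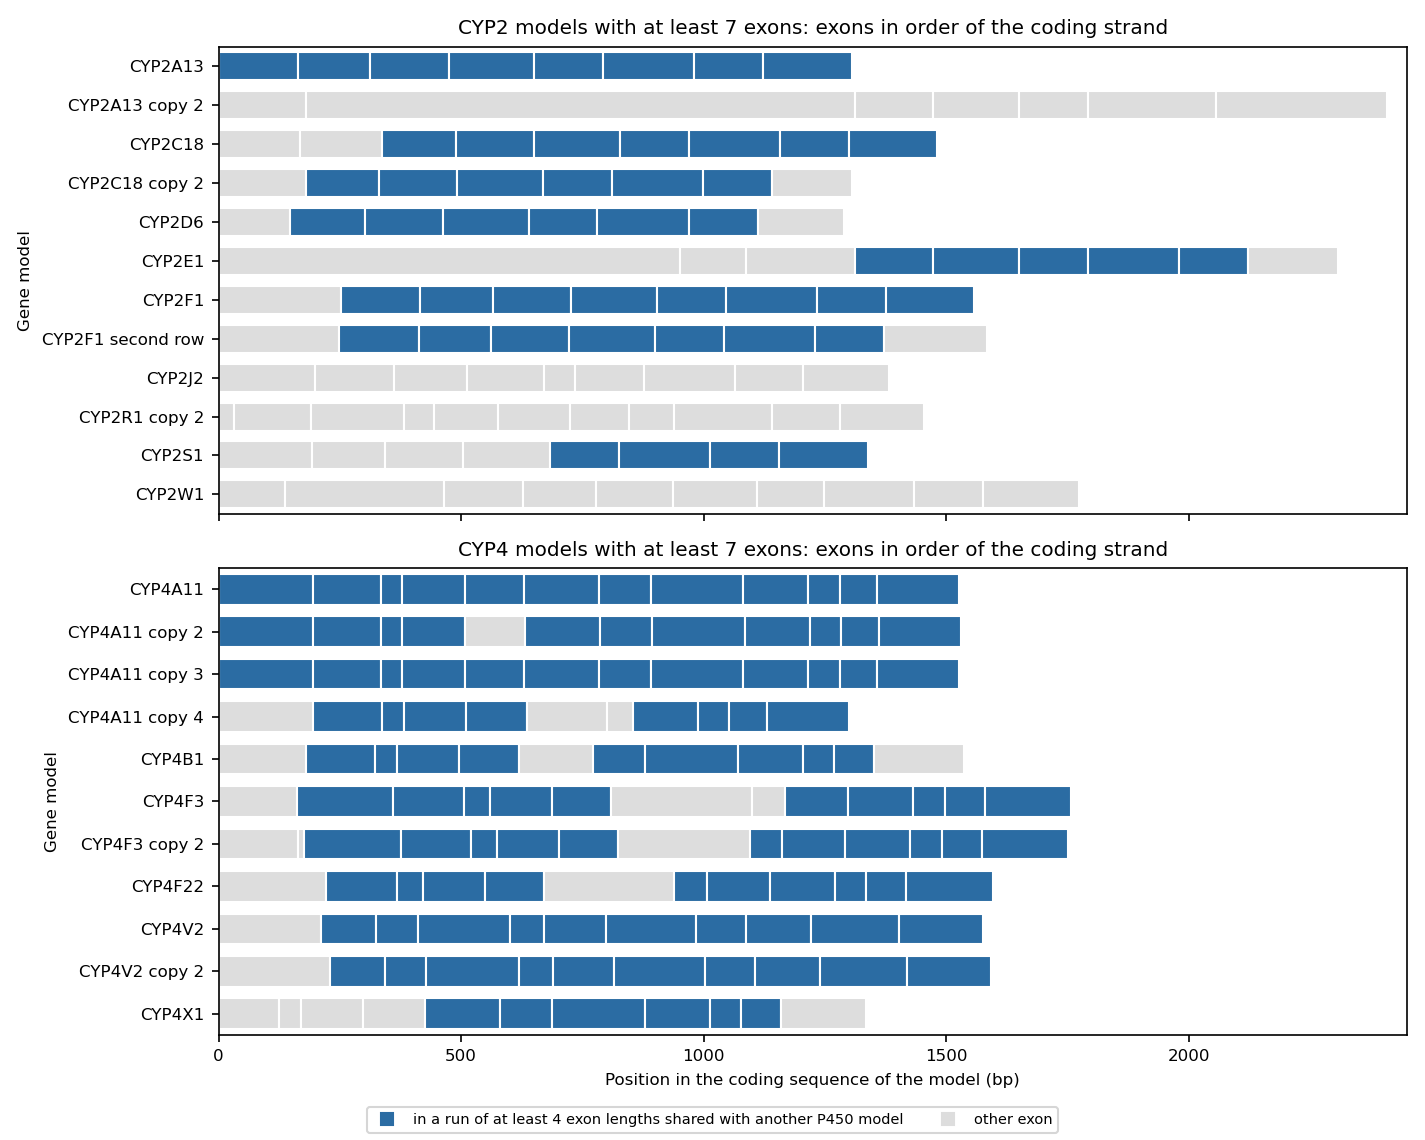
Coding exons, drawn to scale in bp along the coding sequence, of the CYP2 models (top) and CYP4 models (bottom) with at least 7 exons. Blue exons belong to a run of at least 4 exon lengths that another P450 model also holds, and CYP4A11 and its copy 3 are blue over all 12 exons.

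Models of the same name covered similar ranges of the target, short ranges within long ones, or separate pieces of it. There were 41 pairs of models with the same name, of which 31 matched the same target sequence. In 24 of these 31 the matched ranges overlapped, and in 23 the overlap was at least 50% of the shorter range. The 3 long CYP4A11 models, the CYP4V2 models, the CYP2A13 models, and CYP2C18 with its copy 2 overlapped in this way. So did fragments, since a short range within a long match counts as 100% of the shorter range. This was the case for CYP2C18 copies 3, 4, 5 and 6, each set against CYP2C18. The count of overlaps therefore does not show that 2 models cover the same range. Pairs of CYP2C18 models made up 4 of the 7 pairs without overlap, and the CYP4Z1 models were another. The CYP4Z1 models lay 4585 bp apart on the minus strand. Copy 2, upstream, matched positions 367 to 708 and the other model positions 937 to 1204. CYP2A13 and its copy 2, 15329 bp apart, matched ranges that overlapped by 1128 positions, 86.6% of the shorter. Copy 2 had an exon of 1132 bp before exons of 161, 177 and 142 bp, where CYP2A13 had an exon of 150 bp. The coding length of copy 2, 2409 bp, was the highest of all P450 models. Its match covered 2292 positions of the model but 1308 of the target.

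**Figure D4:**
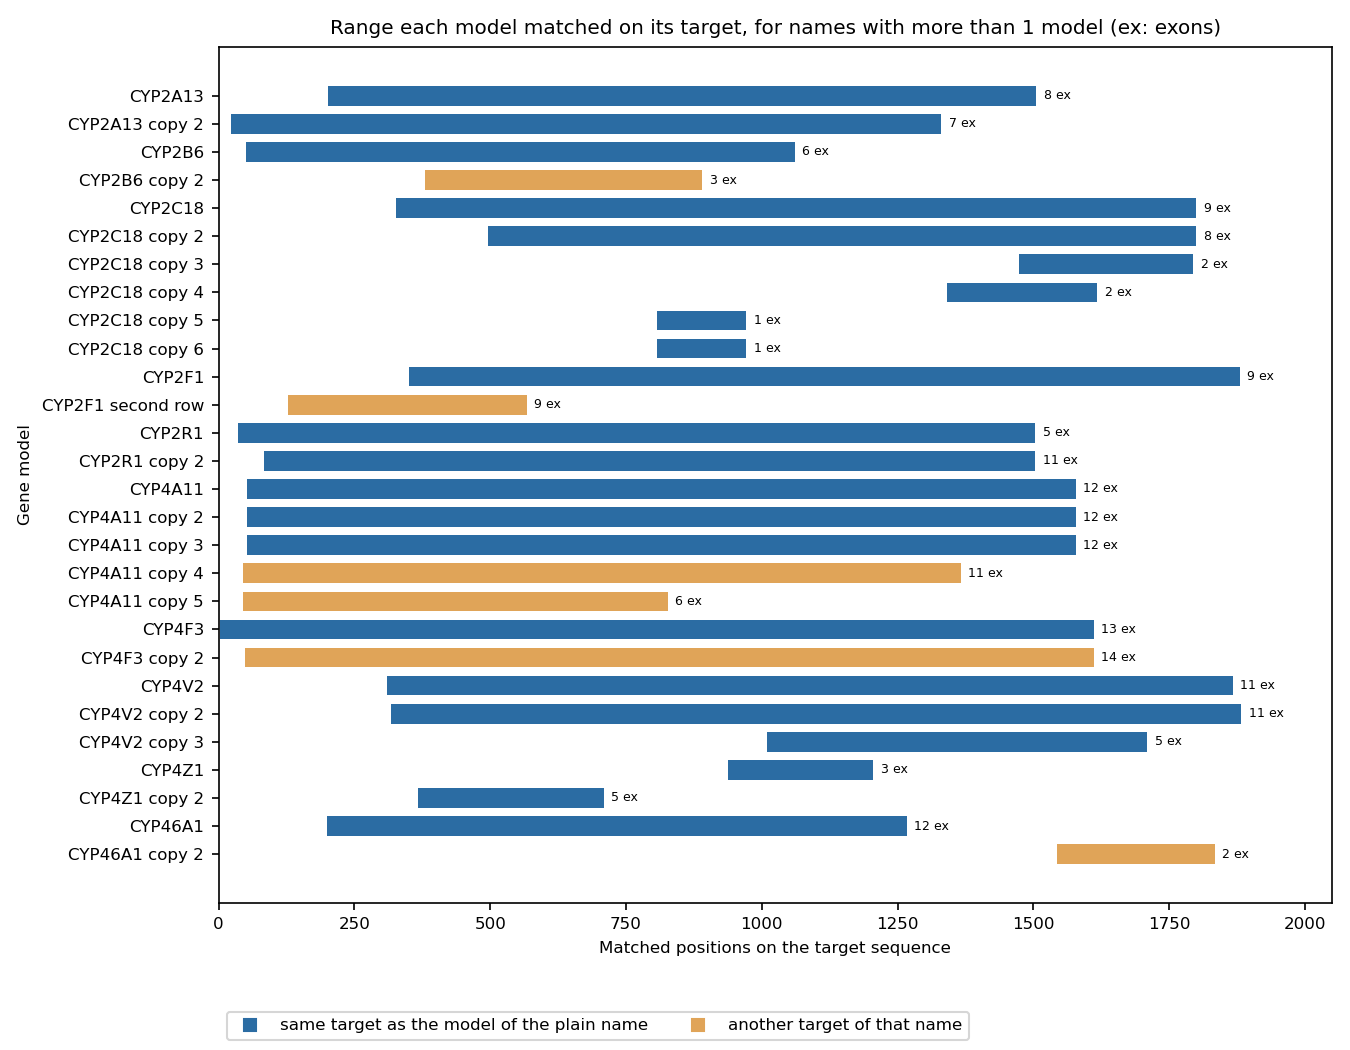
Positions matched on the target sequence (horizontal axis) by the models described here whose name had more than 1 model, with models on the same target as the model of the plain name in blue, those on another target in orange, and the exon number at the end of each bar. Only bars of the same colour within a name share a numbering; the 3 long CYP4A11 models cover the same range, whereas the CYP4Z1 models cover ranges that do not overlap.

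Of the 60 models, 31 (51.7%) were in 1 of the 10 clusters, a share that was not computed over all models. Short models count there too, such as CYP46A1 copy 2 with 2 exons. A model of the same name lay within 100 kb for 19 models (31.7%), against 14.3% over all models. The 9 models that were alone on their scaffold made up 15%, against 6.52% over all models. They were the 8 CYP2C models and CYP4V2 copy 2. Their coding length ranged from 165 to 1593 bp with a median of 277 bp, while that of the 51 others ranged from 471 to 2409 bp with a median of 1383 bp. A coding length that is not a multiple of 3 was found in 7 models (11.7%), close to the 12.2% over all models. Among these were CYP2B6 copy 2, CYP2C18 copy 4, CYP2R1, CYP4A11 copy 5, CYP4V2 copy 3 and CYP7B1. The median length of the gene interval was 7877.5 bp, against 7029 bp over all models. Among models from EVM the order was the opposite, with 8332 bp against 13999 bp, as it was among models with more than 1 exon, with 8344 bp against 12816 bp. CYP7B1 had the longest interval, 34931 bp.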

How the data were processed

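The authors deposited gene models of the talOcc3 assembly as a table of gene, mRNA, exon and coding rows with positions counted from 1. Per the file's rows, each model comes from EVM, exonerate or ALN; for the versions and settings behind them, nothing is stated in the labels. The mRNA rows carry a match score, deposited by the authors in a unit that is not stated, and the matched ranges on target and model. The range on the model never ran past its coding length in bp, so it was read in bases; the unit of the target positions is not stated. Names, exons, clusters and runs of exon lengths were read with Python 3.11.15, after the code was tested on a simulated annotation. Clusters are runs of at least 2 models with gaps of at most 100 kb. Models were described one by one if in the steroid or retinoic acid lists, under a name with several models, in a cluster, or extreme in exon number. Members and lists were chosen with earlier results of these data known. No library enters these values, so depth and replicate error do not apply and no test was run. No member name occurred as a symbol in the RefSeq gene table used here (MPIMG_talOcc4v2.1). Some models enter the counts but are not reported here by name. The chromatin states of talOcc4 and of mouse were not used.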

Additional observations from a re-analysis of the deposited data

How the results depend on the processing

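Under the choices tried, every count stayed within 1.5 times its value. The number of models was 60, and 65 with CYP17A1, TBXAS1 and PTGIS, 65 with the 5 models of CYP2G1P and CYP2B7P, 55 without single-exon models, and 60 after merging overlapping models. Names with more than 1 model numbered 11 or, with CYP2G1P and CYP2B7P, 12. Clusters numbered 9 to 11 and held 27 to 34 models when the distance was 50 kb or 200 kb, when neighbours had to share a strand, without single-exon models, or with CYP2G1P and CYP2B7P, an alternative chosen after seeing the data. The median exon number moved from 7.5 to 8 without single-exon models and to 8 with 1 value per name. The share from EVM was 83.3% of models and 89.7% of names. No paired analysis was possible because the models come from a genome annotation and no library enters a value. For the same reason no replicate could be left out. Names follow 1 matched target, so near-identical relatives cannot be told apart by name, and a name without a model here does not show that the gene is missing from the mole.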

Other observations

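An unnamed gene model held a run of CYP2 exon lengths. It lay on the minus strand of scaffold 36 at 11782006 to 11783746, 4.88 kb from CYP2F1, between EGLN2 and that model, and carried no target match. Its 6 exons measured 177, 142, 188, 142, 192 and 266 bp, a coding length of 1107 bp. The first 4 lengths are exons 5 to 8 of CYP2F1. This run of 177, 142, 188 and 142 bp occurred in 10 models of the annotation: 7 of the P450 models described above, CYP2G1P, CYP2B7P and this model. Apart from CYP2G1P and CYP2B7P, it was the only model outside the P450 set that shared a run of at least 4 exon lengths with any of the 60. It was found by searching all models after the shared runs had been seen.

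CYP2G1P had 3 models besides the one of 9 exons. Copy 4, with 4 exons, lay next to it on scaffold 36 at 11929840 to 11934533. Copies 2 and 3, with 4 exons and 1 exon, were each the only model of a small scaffold, as were the 8 CYP2C models.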
